A study of Mus musculus with 24 samples.

Results

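Gene expression of mitochondrial fuel oxidation in oligodendrocytes (OLs) was followed through 34 genes. They were taken by name. Among them were 16 genes of the tricarboxylic acid (TCA) cycle and its branches and 4 genes placed under the carnitine shuttle. The others were 9 enzymes of fatty acid beta-oxidation, 3 electron transfer flavoprotein genes that take electrons from that oxidation, and 2 ketone body enzymes. All 34 are among the 21965 genes of the deposited count table, and all 34 passed the limit of at least 10 counts summed over the libraries that kept 17167 genes for testing. The lowest count of a member in any library was 119 and the highest 21747.

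The TCA cycle oxidizes acetyl-CoA in the mitochondrial matrix, hands electrons to the respiratory chain and loses intermediates to biosynthesis, which pyruvate carboxylase refills. Long-chain fatty acids enter mitochondria as carnitine esters and are cut into acetyl-CoA by a spiral of dehydrogenation, hydration, a further dehydrogenation and thiolysis. OLs make large amounts of membrane lipid for myelin, so carbon can go to fatty acid synthesis as well as to oxidation, and brain tissue can also burn ketone bodies.

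The libraries came from the thoracic spinal cord of female OL-Ribotag mice that were uninjured (naive) or taken 2, 10 or 42 days post-injury (dpi) after a T9 contusion of 50 kdyn made with an IH impactor at 10 to 12 weeks of age, as the labels give it. Tamoxifen-induced Cre under an OL promoter switches on an HA tag on ribosomal protein RPL22, so that mRNA on tagged ribosomes can be pulled down (OL libraries) beside RNA of the whole tissue (total libraries). Naive mice carried the tag and received tamoxifen as the injured mice did, and the promoter is also active in Schwann cells. The paper states that naive tissue was collected on the same day as that of the latest injured group. Mice of dpi 2 and 10 were thus younger at collection, and nearer to their tamoxifen, than naive mice. The injury times differ from each other in the same way. The part of age and of time since tamoxifen in the changes was not tested. Each of 4 groups had 3 pools of 2 mice, and each pool gave 1 OL and 1 total library, 24 libraries in all.

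Totals per library were 25840127 to 32987841 counts (median 29062636). In naive tissue 12 of 12 mature OL markers were higher in OL than in total libraries (median log2 difference 2.88) and 8 of 8 neuron markers were lower (median -4.26). The OL libraries of a group differed in astrocyte RNA: the summed level of 8 astrocyte markers was 2455.4, 2230.9 and 12231 CPM (counts per 1000000, scaled with TMM) in naive pools 1 to 3. Pools of dpi 2 held 4149.7, 2532.5 and 9669 CPM, pools of dpi 10 held 2854, 7623.7 and 3296.3 CPM, and pools of dpi 42 held 14712, 12803 and 2850.5 CPM. The total libraries lay between 6857.7 and 9393.8, and no group had any of the 8 markers at 0 in all its libraries, although Hgf was at 0 in 4 OL libraries of injured tissue. Schwann cell markers summed to 1.89, 1.57 and 636 CPM in naive OL pools 1 to 3. Their sums in OL libraries of dpi 2, 10 and 42 were 226.4 to 687.9, 874.65 to 1546.6 and 1206.6 to 1403.8 CPM. The part of Schwann cell RNA in the OL changes was not tested. In naive OL libraries 9 microglia and macrophage markers summed to 10.9 to 17.4 CPM. On dpi 2, 10 and 42 they summed to 74.2 to 99.0, 238 to 271 and 151 to 249 CPM in OL libraries. All 9 rose at each time (edgeR, q under 0.05). The paper proposes that some of this RNA came from non-OL cells and filtered its OL genes for it. No such filter was applied here, and the part of this RNA in the OL changes was not tested. For 2 libraries of dpi 42 the title and the description disagree on the kind of RNA, and the description was followed. The column names of the count table give the same kind as the description. With this assignment mature OL markers summed to 116730 to 152860 CPM in OL libraries of dpi 42 and 22549 to 24906 CPM in total libraries. Both libraries of dpi 2 pool 2 held 2414 to 2604 counts on Y-linked genes, against 0 to 13 in the 22 others. This conflicts with the paper's description of the mice as female.

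The promoters of 4 members whose OL levels are described below are shown first, since Pcx had the largest fall and Etfb the largest rise of the members in OLs, and Hadha and Hadhb share a promoter region. The windows run from 250 bases before to 50 bases after each RefSeq gene start on the gene's own strand (GRCm38.p6): Pcx at chr19:4510222-4510521 (plus strand), Etfb at chr7:43443822-43444121 (plus strand), Hadha at chr5:30154931-30155230 (minus strand) and Hadhb at chr5:30155003-30155302 (plus strand). Capitals mark CCAAT, or ATTGG where it lies on the other strand.
Pcx: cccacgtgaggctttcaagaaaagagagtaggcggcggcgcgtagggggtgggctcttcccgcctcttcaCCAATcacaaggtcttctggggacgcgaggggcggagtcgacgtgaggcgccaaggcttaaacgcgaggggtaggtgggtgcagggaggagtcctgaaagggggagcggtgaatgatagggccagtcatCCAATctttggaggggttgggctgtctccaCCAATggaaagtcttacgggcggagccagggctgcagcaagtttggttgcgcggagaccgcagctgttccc
Etfb: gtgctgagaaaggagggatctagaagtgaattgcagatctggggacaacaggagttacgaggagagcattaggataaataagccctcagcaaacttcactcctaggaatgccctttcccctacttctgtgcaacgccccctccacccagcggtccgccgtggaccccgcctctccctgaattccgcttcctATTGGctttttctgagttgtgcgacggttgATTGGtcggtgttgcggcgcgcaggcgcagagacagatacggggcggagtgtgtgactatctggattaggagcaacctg
Hadha: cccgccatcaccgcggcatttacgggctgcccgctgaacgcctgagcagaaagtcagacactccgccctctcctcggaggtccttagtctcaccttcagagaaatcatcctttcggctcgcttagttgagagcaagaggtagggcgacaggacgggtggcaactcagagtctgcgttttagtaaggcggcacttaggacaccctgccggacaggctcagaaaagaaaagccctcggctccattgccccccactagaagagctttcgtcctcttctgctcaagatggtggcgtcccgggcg
Hadhb: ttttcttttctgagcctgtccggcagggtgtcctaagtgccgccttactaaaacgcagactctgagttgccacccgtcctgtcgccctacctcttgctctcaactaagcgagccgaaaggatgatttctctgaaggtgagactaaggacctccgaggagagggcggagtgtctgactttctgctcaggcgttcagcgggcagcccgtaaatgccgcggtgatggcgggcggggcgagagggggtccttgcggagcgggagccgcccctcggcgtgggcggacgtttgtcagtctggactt

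Hadha and Hadhb encode the alpha and beta subunits of the mitochondrial trifunctional protein, and their windows overlap by 228 bases because the genes start back to back. Neither window held any of the 4 motifs searched on both strands. Of the 34 members 32 matched a RefSeq promoter, and Idh3a and Acaa2 did not. CCAAT was found in 16 of these 32 windows (50%) against 37.9% of 27025 promoters, AGGTCA in 8 (25%) against 16%, TGCGCA in 4 (12.5%) against 8.06%, and TATAAA in 0 against 14.2%. The median GC content was 60% in the members and 52.7% over all promoters. Such matches describe letters in a window and not binding.

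In naive tissue the enzymes of fatty acid oxidation were mostly higher in OLs than in total RNA, and most TCA cycle genes that differed were lower. Of the 34 members 12 were higher and 10 lower in OL than in total RNA of the same pools, where 24.4% and 29.1% of all tested genes were called higher and lower (edgeR, q under 0.05, here and below after Benjamini-Hochberg adjustment over all tested genes). The median log2 difference was -0.15 over the members and -0.31 over all tested genes. With library sizes alone in place of TMM scaling the counts were 8 higher and 18 lower, and with a total RNA library as the TMM reference 13 and 7. A lower level in such bulk libraries can stand for fewer cells of a type or for less RNA per cell. In OL libraries it can also stand for less of that RNA on tagged ribosomes. These cannot be told apart here.

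By role, 7 of the 9 beta-oxidation enzymes were higher and none was lower (median log2 difference 0.96, 0 lower also at an unadjusted p under 0.05). Hadh, the short-chain hydroxyacyl-CoA dehydrogenase, read 172, 201 and 194 CPM in naive OL pools 1 to 3 and 43.7, 42.7 and 40.4 CPM in the total libraries of those pools. The groups lay far apart, and Hadh had the largest OL enrichment of the members, with a log2 difference of 2.16 ± 0.10 (SE, q = 1.3e-09). Hadha (1.38 ± 0.10), the long-chain acyl-CoA dehydrogenase Acadl (1.27 ± 0.10), the very-long-chain enzyme Acadvl (1.27 ± 0.11) and the enoyl-CoA hydratase Echs1 (0.96 ± 0.09) followed, and Hadhb (0.71) and the medium-chain enzyme Acadm (0.68) were higher too, although not with library sizes alone (0.20, q = 0.39, and 0.17, q = 0.48). The short-chain dehydrogenase Acads (0.51) and the thiolase Acaa2 (-0.81) did not pass.

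Cpt2, which turns acylcarnitine back into acyl-CoA on the matrix side, read 44.7, 47.6 and 41.3 CPM in naive OL and 17.3, 15 and 15.7 CPM in total RNA. It was higher in each OL library, by 1.48 ± 0.16 on the log2 scale (q = 3.2e-06). No other gene of the shuttle was called higher in OLs. Cpt1a, the carnitine palmitoyltransferase of the outer membrane, gave -0.51 (q = 0.06) and the carnitine carrier Slc25a20 gave -0.49, both without passing. The related brain form Cpt1c was lower at -0.33 (lost without any 1 naive pool, -0.32 to -0.34). The flavoprotein genes Etfb (0.69) and Etfdh (0.43) were higher, although with library sizes alone Etfb was 0.18 (q = 0.52) and Etfdh turned to -0.08 (q = 0.68). Without the 4 OL libraries richest in astrocyte markers, an omission chosen after the data were seen, both calls were lost (Etfb 0.54, q = 0.13, and Etfdh 0.33, q = 0.053), and they were lost without naive pool 2 (q = 0.067 and 0.063) or pool 3 (q = 0.10 and 0.097). Etfa gave -0.19.

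In the TCA group 2 of 16 genes were higher and 8 lower, against 24.4% and 29.1% of all tested genes. The median of the group was -0.30, close to the median of -0.31 over all tested genes. The malate dehydrogenase of the cytosol, Mdh1, read 218, 242 and 296 CPM in naive OL and 698, 698 and 689 CPM in total RNA. Sucla2, the ADP-forming beta subunit of succinyl-CoA synthetase, read 80.0, 86.7 and 88.3 CPM against 224, 231 and 214 CPM. Idh3a, the catalytic subunit of NAD-dependent isocitrate dehydrogenase, read 79.3, 76.1 and 96.4 CPM against 214, 211 and 218 CPM.

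For all 3 genes each OL library lay below each total library. The log2 differences were -1.47 ± 0.10 for Mdh1 (q = 4.4e-08), -1.39 ± 0.09 for Sucla2 (q = 2.5e-08) and -1.36 ± 0.10 for Idh3a (q = 1.1e-07), and Idh3b, a second subunit of the same enzyme, gave -1.33 ± 0.16. Dld (-0.60), Suclg1 (-0.50), Fh1 (-0.40) and Mdh2 (-0.35) were also lower, Suclg1 and Mdh2 not without naive pool 1 (-0.40 and -0.24) or pool 2 (-0.42 and -0.29). The summed level of 8 neuron markers was 295 to 632 CPM over the OL libraries and 10201 to 10909 CPM in naive total RNA, and its part in these differences was not tested.

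The isocitrate dehydrogenase of the cytosol, Idh1, which makes NADPH, went the other way from Idh3a. It read 159.6, 153 and 140.3 CPM in naive OL and 58.0, 58.9 and 54.0 CPM in total RNA, which did not overlap, a log2 difference of 1.41 ± 0.08 (q = 1.1e-08). Pcx, pyruvate carboxylase, was the other TCA member higher in OLs (0.90 ± 0.10, q = 4.9e-06). No difference passed for Cs, the citrate synthase that opens the cycle (0.15), Idh2, the mitochondrial NADPH-forming enzyme (0.32), Ogdh (-0.11), Dlst (-0.10), Idh3g (-0.26) or Suclg2 (-0.23). Of the ketone body enzymes, Oxct1, which activates acetoacetate for burning, was lower (-0.43) with overlapping libraries, not without naive pool 1 (-0.30) or pool 2 (-0.26), and Bdh1 gave -0.27.

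**Figure D1:**
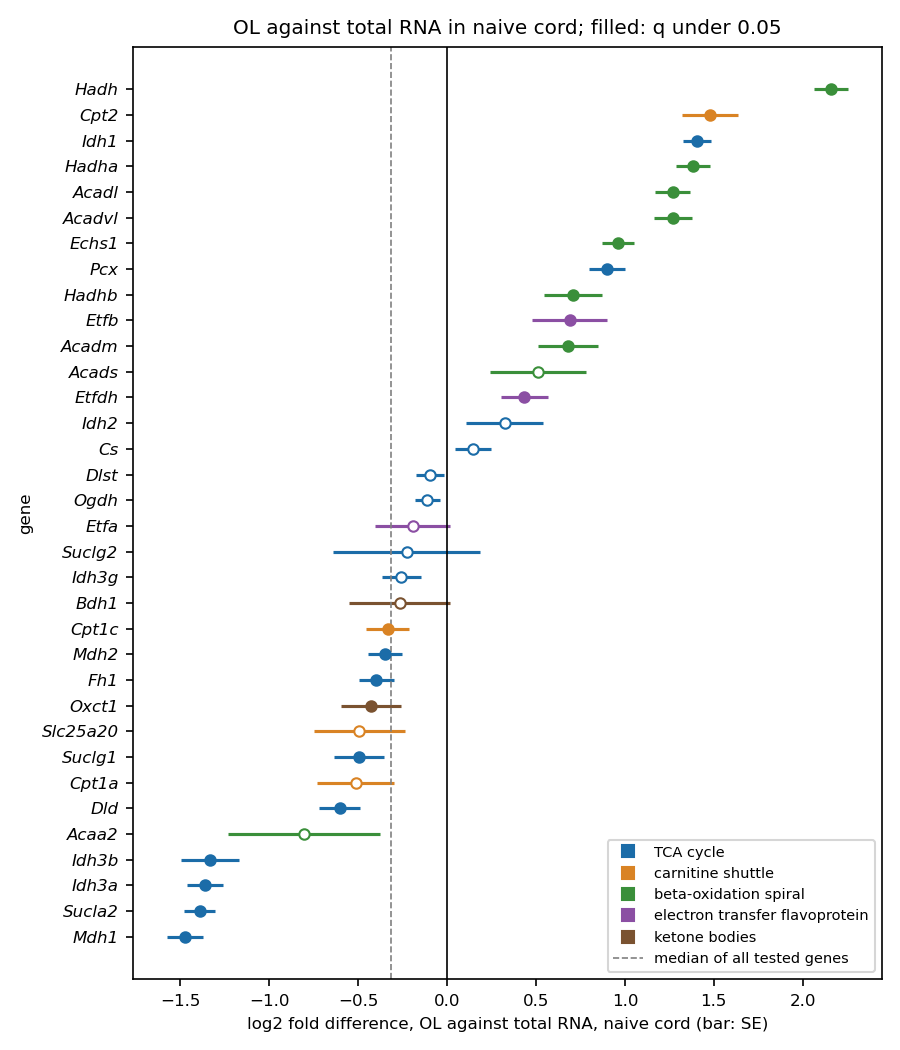
Log2 difference between OL and total RNA of the same naive pools (x axis) for each of the 34 members (y axis), ordered by this difference and coloured by role, with bars of 1 SE, filled points where q is under 0.05 and a dashed line at the median of all tested genes (-0.31). The beta-oxidation enzymes sit mostly to the right, up to 2.16 for Hadh, and Mdh1, Sucla2, Idh3a and Idh3b sit at the left end.

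Levels of different genes were compared per length, as reads per 1000 bases of exon and 1000000 counts (RPKM) over GENCODE exons. The length was the union of all annotated exons of a gene, which can exceed that of a transcript. The order below depends on it. In naive OLs Hadha (8730 bases) read 287 CPM and 32.8 RPKM, while Mdh1 (2567 bases) read 252 CPM and 98.2 RPKM. In naive OLs the highest mean levels were 98.2 ± 15.5 RPKM for Mdh1 (SD, n = 3), 78.1 ± 18.7 for Mdh2, 71.6 ± 5.63 for Acadl, 70.7 ± 5.59 for Ogdh and 65.3 ± 13.2 for Cs. The ranges of mean ± SD of neighbours in this order overlapped. The lowest were Slc25a20 (2.29 ± 1.21), Suclg2 (3.67 ± 2.71) and Cpt1a (5.79 ± 3.53). In naive total RNA Mdh1 stood at 270.8 ± 1.97 RPKM, above Mdh2 at 97.7 ± 2.39, and Slc25a20 was again lowest at 2.98 ± 0.20.

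On dpi 2 Pcx had the largest fall in OLs, Ogdh, Idh3g, Hadha and Hadhb were among the others that fell, and Etfb rose. Of the 34 members 2 rose and 7 fell, against 18.4% and 20% of all tested genes, with a median log2 change of -0.09 against 0.00 over all. The 7 that fell are 20.6% of the members, close to the share over all genes. With library sizes alone 7 rose and 6 fell, and with a total RNA library as the TMM reference 1 rose and 13 fell. Leaving out the OL library richest in astrocyte markers from each group gave 6 and 9. Without both libraries of dpi 2 pool 2, which held Y-linked counts, there were 1 and 8. Leaving out naive OL pool 3 alone gave 7 and 8, and leaving out dpi 2 OL pool 3 alone gave 1 and 14.

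Pcx was the member with the largest OL change. It read 176, 205 and 215 CPM in naive OL pools 1 to 3, 56.9, 64.5 and 77.4 CPM on dpi 2, 113, 102 and 88.0 CPM on dpi 10, and 114, 114 and 120.0 CPM on dpi 42. Every injured library lay below every naive library, the dpi 2 libraries lowest. The mean was 199 ± 20.2 CPM in naive OL (SD, n = 3) and 66.3 ± 10.3 CPM on dpi 2, and the log2 change was -1.59 ± 0.13 (q = 6.8e-09). On dpi 10 Pcx was still down by -0.98 ± 0.13 (q = 1.4e-05) and on dpi 42 by -0.78 ± 0.13 (q = 7.9e-05), and from dpi 2 to dpi 10 it rose by 0.61 (q = 0.0013). These 4 calls held under every alternative, including the omission of the OL libraries richest in astrocyte markers (-1.72, -0.92 and -0.75 at the 3 times).

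Pcx fell in total RNA as well, where it read 99.0, 111 and 109.8 CPM in naive pools, 44.0, 37.0 and 49.6 CPM on dpi 2, 55.9, 55.1 and 50.3 CPM on dpi 10, and 77.6, 63.8 and 63.2 CPM on dpi 42. The naive libraries again lay above all injured ones. The log2 changes were -1.29 ± 0.13, -0.98 ± 0.13 and -0.64 ± 0.13 (q = 1.3e-07, 5.3e-06 and 0.00088).

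Ogdh, the first subunit of the 2-oxoglutarate dehydrogenase complex, was the other member that fell in OLs at all 3 times. It read 351, 407 and 399 CPM in naive OL, 279, 253 and 267 CPM on dpi 2, 327, 336 and 271 CPM on dpi 10, and 324, 305 and 284 CPM on dpi 42, each injured library below each naive one. Its log2 changes were -0.54 ± 0.09 (q = 9.7e-05), -0.31 (q = 0.023) and -0.34 ± 0.09 (q = 0.0071). The dpi 10 call was lost without dpi 10 OL pool 3 (-0.23, q = 0.12) or naive OL pool 2 (-0.27, q = 0.084). The dpi 42 call was lost with a length and GC offset (-0.22, q = 0.079).

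Dlst, the second subunit of that complex, moved up on dpi 2: it read 141, 142 and 156 CPM in naive OL and 158, 173 and 189 CPM after injury. The groups did not overlap, but by less than 2 CPM, and the rise of 0.24 ± 0.09 (q = 0.031) was lost when any 1 of these 6 libraries was left out (range 0.11 to 0.23). Idh3g, a regulatory subunit of isocitrate dehydrogenase, read 93.0, 103 and 145 CPM in naive OL and 65.0, 56.5 and 91.3 CPM on dpi 2, a fall of 0.68 on the log2 scale (SE 0.18, q = 0.0042), with the highest dpi 2 library just below the lowest naive one. A fit on the naive and dpi 2 OL groups alone gave -0.62 (q = 0.11).

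**Figure D2:**
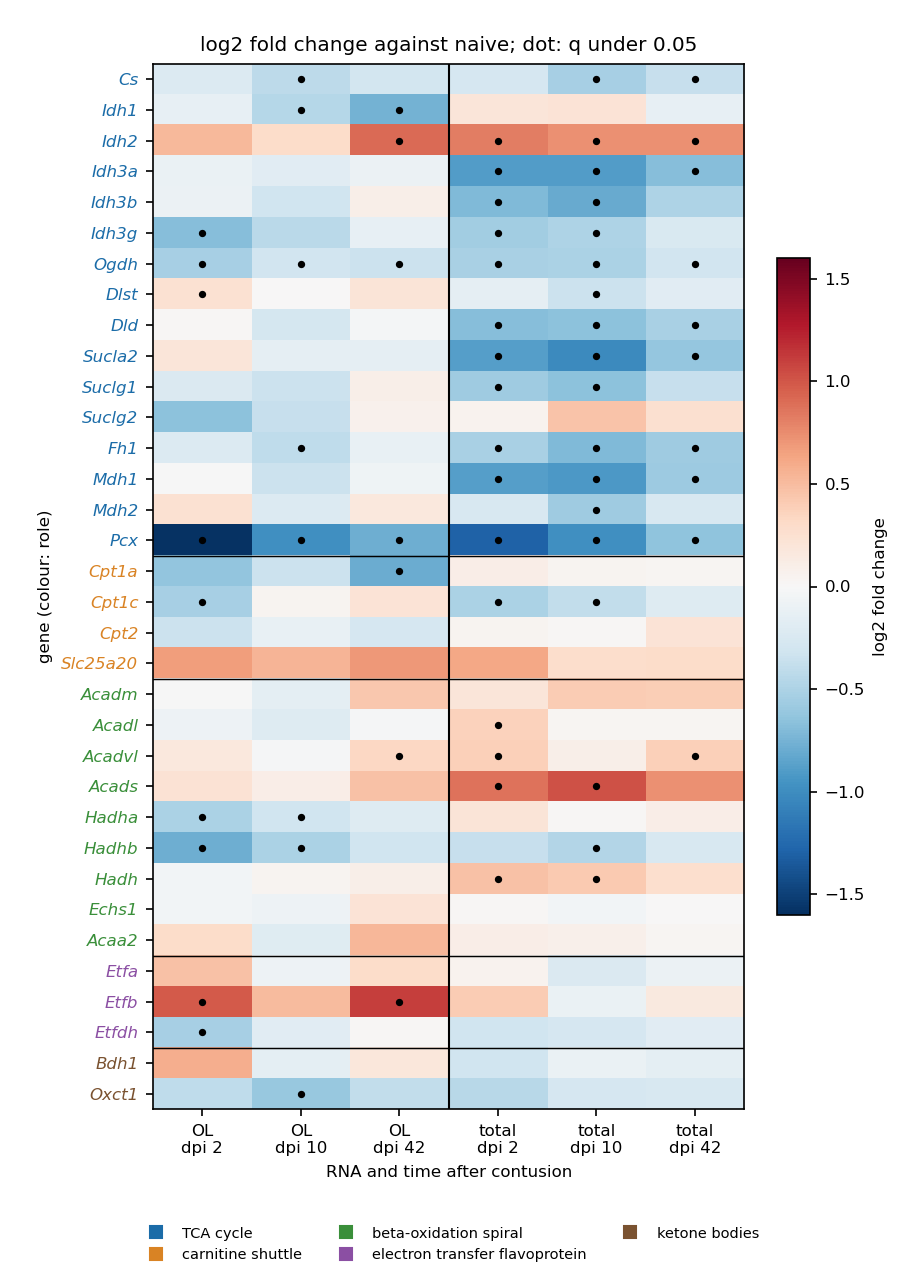
Log2 change from naive (colour scale) of the 34 members (rows, by role) in OL and in total RNA on dpi 2, 10 and 42 (columns), with a scale from blue (lower) to red (higher) and dots on changes of q under 0.05. Pcx is down in all 6 columns, Etfb is up in the OL columns of dpi 2 and 42, and 10, 13 and 8 of the 16 TCA rows carry a dot for a fall in the total RNA columns, where Idh2 is up.

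Both trifunctional protein subunits fell on dpi 2. Hadha read 257, 285 and 318 CPM in naive OL and 195, 189 and 220.2 CPM on dpi 2, and Hadhb read 76.5, 84.8 and 115 CPM against 45.5, 49.7 and 65.4 CPM. Neither gene's groups overlapped. The log2 changes were -0.51 ± 0.09 for Hadha (q = 0.0002) and -0.78 ± 0.17 for Hadhb (q = 0.00088), and both were lost with a length and GC offset (-0.12, q = 0.35, and -0.44, q = 0.096). Of the exonic bases of Hadha 75 overlap Garem2.

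On dpi 10 the levels were 260.4, 217 and 214 CPM for Hadha and 67.3, 72.0 and 54.9 CPM for Hadhb. Hadha overlapped naive OL and Hadhb did not, with log2 changes of -0.31 (q = 0.024) and -0.51 ± 0.17 (q = 0.04). Without naive OL pool 3 neither passed (-0.24, q = 0.11, and -0.32, q = 0.19), and each call was also lost without dpi 10 pool 3 and, for Hadha, dpi 10 pool 2 or naive pool 2, and for Hadhb, dpi 10 pool 1. On dpi 42 the values of -0.21 and -0.31 did not pass. In total RNA Hadha was not called at any time, and Hadhb passed on dpi 10 (-0.47, q = 0.039) but not without any 1 of the dpi 10 total pools or naive total pools 1 and 2 (-0.38 to -0.51).

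Etfb, the beta subunit of the electron transfer flavoprotein, went up. It read 8.53, 8.21 and 9.45 CPM in naive OL, 17.3, 18.6 and 15.7 CPM on dpi 2, 12.9, 11.7 and 12.7 CPM on dpi 10, and 19.4, 21.7 and 15.4 CPM on dpi 42. Every injured library lay above every naive one. The log2 change was 0.98 ± 0.20 on dpi 2 (q = 0.00059), 0.51 on dpi 10 (q = 0.09) and 1.11 ± 0.20 on dpi 42 (q = 0.00026).

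Both Etfb calls held without the astrocyte-rich OL libraries (1.04 and 1.10) and were lost with a length and GC offset (0.14, q = 0.63, and 0.27, q = 0.34). Of the 1164 exonic bases of Etfb 617 are shared on the same strand with Gm45233, which held at most 0.201 CPM. How reads in shared bases were counted was not given. The low level of Gm45233 thus does not show whether reads in these bases were counted for Etfb. Etfdh, the oxidoreductase that passes these electrons to ubiquinone, fell on dpi 2 by 0.53 on the log2 scale (SE 0.13, q = 0.0029), and with the same offset it read -0.13 (q = 0.53). Etfa did not pass at any time.

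Of the 4 genes placed under the carnitine shuttle only Cpt1c, the brain form related to Cpt1a, fell on dpi 2. Cpt1a, Cpt2 and Slc25a20 were not called then (q = 0.075, 0.064 and 0.062). Cpt1c read 39.1, 38.1 and 36.4 CPM in naive OL, 30.3, 23.8 and 24.7 CPM on dpi 2, 39.3, 42.2 and 35.1 CPM on dpi 10, and 43.1, 40.2 and 48.5 CPM on dpi 42. The dpi 2 libraries were the lowest, with a log2 change of -0.53 ± 0.12 (q = 0.0014), and from dpi 2 to dpi 10 Cpt1c rose by 0.57 (q = 0.0016). The dpi 2 call was lost in a fit of the compared groups alone (q = 0.061).

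Cpt1a, the usual control point of fatty acid entry, read 27.6, 29.8 and 75.4 CPM in naive OL, 23.1, 25.7 and 37.1 CPM on dpi 2, 35.2, 37.0 and 32.7 CPM on dpi 10, and 25.4, 31.8 and 19.6 CPM on dpi 42. Naive pool 3, which was rich in astrocyte markers, stood far above the other naive libraries, and the groups overlapped. That library also held more marker RNA of OL precursor cells (132 CPM, against 34.3 and 26.7 CPM in naive pools 1 and 2) and Schwann cell marker RNA, and dpi 42 pool 1, with the highest astrocyte sum, read 25.4 CPM of Cpt1a. Its changes were -0.63 (q = 0.075), -0.34 (q = 0.44) and -0.79 ± 0.27 (q = 0.03), and without naive OL pool 3 the last was -0.23 (q = 0.38). That call was also lost without dpi 42 OL pool 1 or 3. Cpt2 and Slc25a20 were not called in OLs at any time. Slc25a20 gave 0.67, 0.54 and 0.70.

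By edgeR 0 of the 34 members rose and 8 fell in OLs on dpi 10, against 9.62% and 8.59% of all tested genes, and the median was -0.20 against 0.00. At an unadjusted p under 0.05 there were 1 rise and 12 falls, and DESeq2 called 1 and 8. With library sizes alone 1 rose and 2 fell, and without the 4 astrocyte-rich OL libraries 2 rose and 4 fell. Of the 8 falls 5 were among the 16 genes of the TCA cycle and its branches: the cycle enzymes Ogdh, Cs and Fh1 (-0.40, q = 0.017), Pcx and the cytosolic Idh1. Leaving out dpi 10 OL pool 3 gave 0 rises and 3 falls, and leaving out dpi 10 OL pool 1 gave 0 and 5.

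Cs read 327, 339.9 and 465 CPM in naive OL, 318, 279.9 and 375 CPM on dpi 2, 289, 310.5 and 249 CPM on dpi 10, and 293, 332 and 302 CPM on dpi 42. Its dpi 10 libraries lay below the naive ones, by -0.42 ± 0.13 on the log2 scale (q = 0.029). The changes of -0.22 on dpi 2 (q = 0.2) and -0.29 on dpi 42 (q = 0.095) did not pass. Without naive OL pool 3 the dpi 10 value was -0.24 (q = 0.18), and it was also lost without dpi 10 OL pool 1 or 3.

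Oxct1 read 169, 166 and 301 CPM in naive OL, 149.6, 129 and 201 CPM on dpi 2, 133, 156 and 129.8 CPM on dpi 10, and 171, 191 and 122 CPM on dpi 42. It fell on dpi 10 by 0.60 on the log2 scale (SE 0.19, q = 0.033), with no overlap. Naive pool 3 was again the highest library, and without it the change was -0.26 (q = 0.26). The call was also lost without dpi 10 OL pool 1 or 3.

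Bdh1, the mitochondrial 3-hydroxybutyrate dehydrogenase, read 27.9, 32.0 and 86.2 CPM in naive OL, 67.1, 69.0 and 83.1 CPM on dpi 2, 38.8, 54.2 and 38.1 CPM on dpi 10, and 85.6, 53.9 and 26.8 CPM on dpi 42. The range within the naive and dpi 42 groups was wider than any difference between group means. No change passed (0.58, -0.16 and 0.19), yet without naive OL pool 3 the dpi 2 value was 1.22 (q = 0.0014) and the dpi 42 value 0.82 (q = 0.024).

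By dpi 42 there were 3 rises and 4 falls of members in OLs, against 16.2% and 16.9% of all tested genes and a median of 0.04 against 0.00. With library sizes alone 8 rose and 2 fell, with a total RNA library as the TMM reference 2 and 10, with a length and GC offset 7 and 4, with the size factors of DESeq2 5 and 4, and without the astrocyte-rich libraries 7 and 3. Single libraries turned the split as well, with 10 rises and 3 falls without naive OL pool 3 and 2 and 8 without naive OL pool 1. The falls were Pcx, Idh1, Ogdh and Cpt1a, and the rises Etfb, Idh2 and Acadvl.

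Idh1 fell late. It read 159.6, 153 and 140.3 CPM in naive OL, 139, 143 and 133 CPM on dpi 2, 118, 108 and 105 CPM on dpi 10, and 88.8, 95.9 and 82.6 CPM on dpi 42. The dpi 10 libraries lay below those of dpi 2 and the dpi 42 libraries below those of dpi 10. The changes from naive were -0.13 (q = 0.29), -0.45 ± 0.09 (q = 0.001) and -0.76 ± 0.09 (q = 2.4e-06), and both steps after dpi 2 passed (-0.33 and -0.31). The first step was lost without dpi 10 OL pool 2 or 3 or dpi 2 OL pool 1 or 2 (-0.24 to -0.25) and the second without dpi 10 OL pool 1 (-0.32, q = 0.085) or dpi 42 OL pool 1 (-0.35, q = 0.066). Its calls on dpi 10 and 42 held under every alternative.

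Idh2 rose by dpi 42. It read 23.5, 24.2 and 40.3 CPM in naive OL, 36.5, 35.4 and 53.7 CPM on dpi 2, 37.7, 41.5 and 28.9 CPM on dpi 10, and 71.0, 54.5 and 39.8 CPM on dpi 42. Naive pool 3 overlapped each injured group. The change passed on dpi 42 (0.91 ± 0.22, q = 0.0027) and not on dpi 2 (0.51, q = 0.067) or dpi 10 (0.30, q = 0.39), and without naive OL pool 3 those were 0.75 (q = 0.0064) and 0.59 (q = 0.048). A fit of the naive and dpi 42 OL groups alone gave 0.94 (q = 0.064). The rise of Acadvl on dpi 42 (0.33 ± 0.12, q = 0.045) had overlapping libraries and was lost without any 1 of dpi 42 OL pools 1 and 2 and naive OL pools 1 and 2. Of the 2686 exonic bases of Acadvl 1151 overlap Dvl2 on the opposite strand, and the strand setting of the counting was not given.

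**Figure D3:**
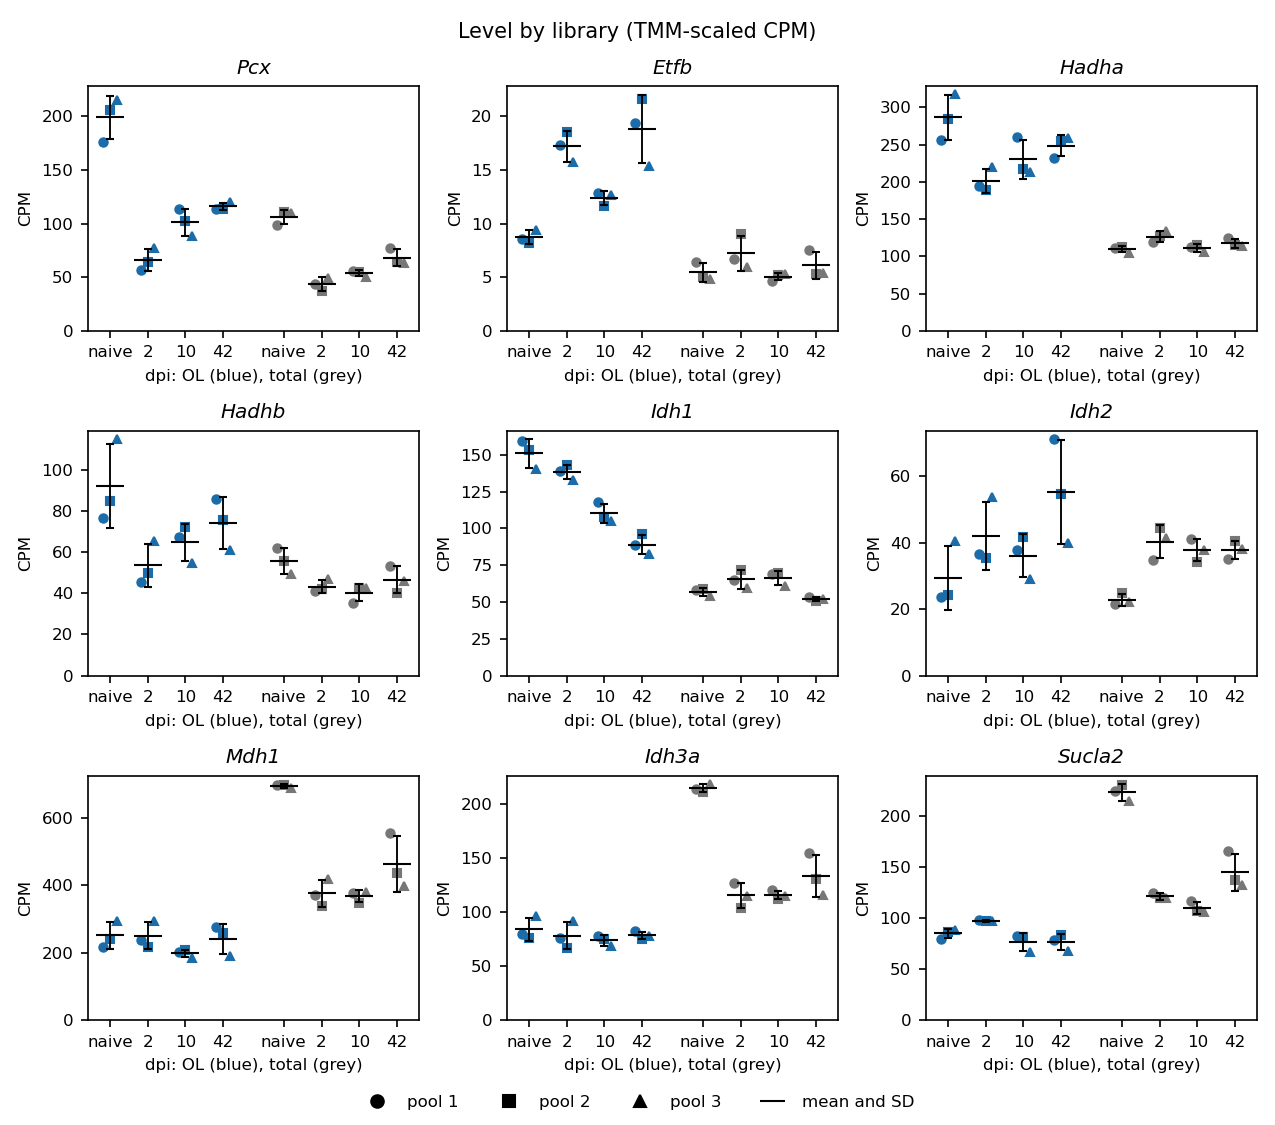
TMM-scaled CPM in each library (y axis, points shaped by pool) of Pcx, Etfb, Hadha, Hadhb, Idh1, Idh2, Mdh1, Idh3a and Sucla2, 1 panel a gene, over naive, dpi 2, 10 and 42 (x axis), with OL in blue, total RNA in grey and bars for the mean and SD of 3 libraries. Pcx in OLs drops from 176 to 215 CPM in naive tissue to 56.9 to 77.4 CPM on dpi 2, and Idh1 in OLs steps down to 82.6 to 95.9 CPM on dpi 42.

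Between injury times, 2 members rose and 4 fell in OLs from dpi 2 to dpi 10, against 11.7% and 10.6% of all tested genes, and with a total RNA library as the TMM reference 3 rose and 3 fell and without the astrocyte-rich OL libraries 6 rose and 1 fell. The rises were Pcx and Cpt1c, and the falls were Idh1, Dlst (-0.24), Sucla2 (-0.34) and Mdh2 (-0.47). The fall of Dlst was lost without any 1 of the 6 libraries, that of Sucla2 without dpi 10 pool 3 (-0.19) or any dpi 2 pool, and that of Mdh2 without any dpi 10 pool or dpi 2 pool 3 (-0.27). From dpi 10 to dpi 42, Acadm rose (0.59, q = 0.042) and Idh1 fell, against 3.28% and 3.90% of all tested genes. The Acadm call was lost without dpi 10 OL pool 1 or 3 or dpi 42 OL pool 1 or 2 (0.37 to 0.50).

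In each OL group 1 library had the highest astrocyte marker sum: naive pool 3, dpi 2 pool 3, dpi 10 pool 2 and dpi 42 pool 1. For 12 of the 34 members that library was also the member's highest in 4 of 4 groups, where 5.06% of all tested genes had this pattern: Idh2, Idh3g, Dld, Mdh1, Slc25a20, Acadvl, Acads, Hadhb, Acaa2, Etfa, Etfdh and Bdh1. Idh1 and Cpt2 were highest in another library in each of the 4 groups, as were 25.2% of all tested genes. The part of astrocyte RNA in the changes was not tested.

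**Figure D4:**
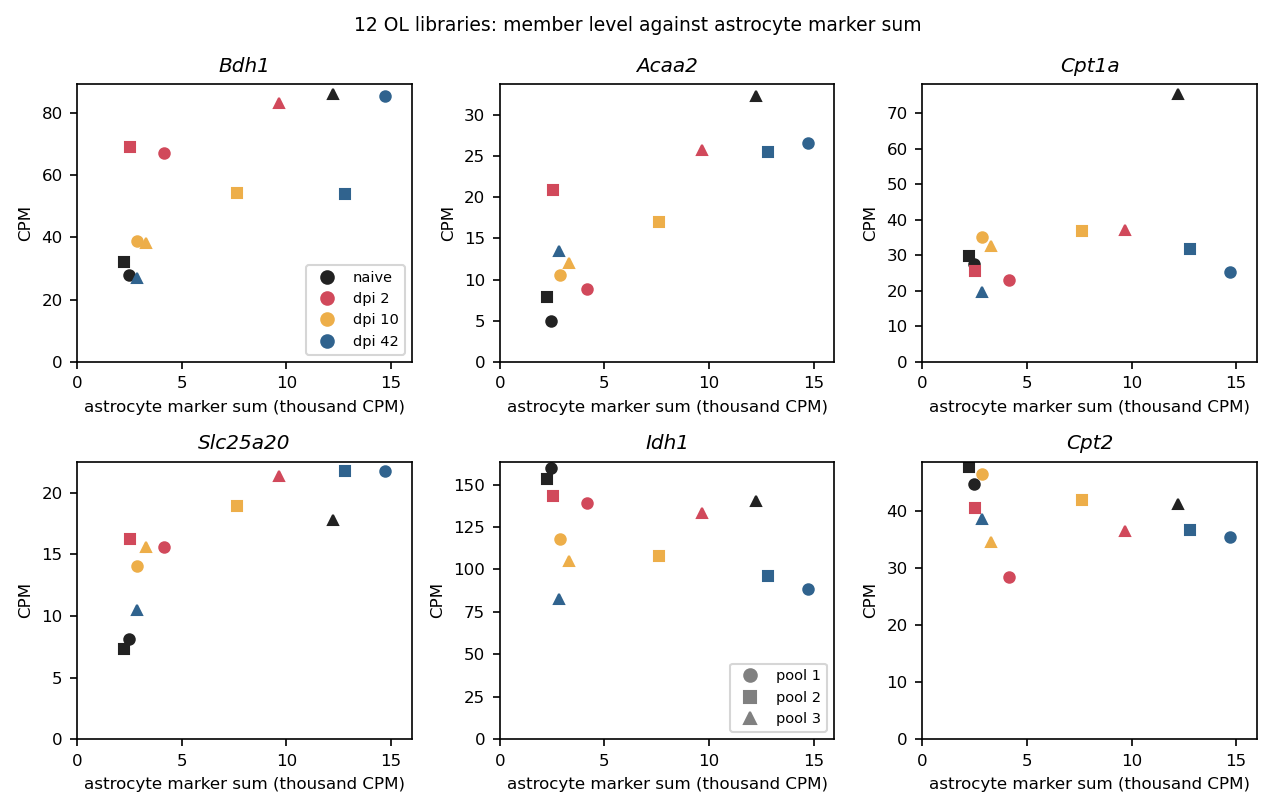
Summed CPM of 8 astrocyte markers (x axis, in units of 1000 CPM) against the CPM (y axis) of Bdh1, Acaa2, Cpt1a, Slc25a20, Idh1 and Cpt2 in the 12 OL libraries, coloured by group and shaped by pool. Cpt1a reads 75.4 CPM in naive pool 3, which holds 12231 CPM of astrocyte markers, and at most 37.1 CPM elsewhere. Idh1 is lowest in the 3 dpi 42 libraries, which hold 14712, 12803 and 2850.5 CPM of these markers.

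In total spinal cord RNA more members fell than rose at each time. On dpi 2, 5 members rose and 11 fell, against 16.4% and 20.8% of all tested genes, with a median of -0.20 against -0.10. On dpi 10, 3 rose and 15 fell (13.9% and 18.2%, medians -0.25 and -0.10), and on dpi 42, 2 rose and 8 fell (10.4% and 12.1%, medians -0.16 and -0.08). Of the 16 TCA genes 10, 13 and 8 fell at the 3 times and 1 rose at each, with medians of -0.54, -0.61 and -0.37. Of the 9 beta-oxidation enzymes 4, 2 and 1 rose and 0, 1 and 0 fell. The split moved with the scaling: with library sizes alone the rises on dpi 2, 10 and 42 numbered 9, 5 and 4 and the falls 6, 8 and 6. With a total RNA library as the TMM reference the counts were 9 and 9, 5 and 11, and 5 and 6, the size factors of DESeq2 gave 5 and 13 on dpi 10, and the length and GC offset 0 and 6 on dpi 42.

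Idh3a in total RNA read 214, 211 and 218 CPM in naive pools, 127, 104 and 115 CPM on dpi 2, 119.9, 112 and 115 CPM on dpi 10, and 154, 130.2 and 115 CPM on dpi 42. Mdh1 read 698, 698 and 689 CPM, then 373, 339.8 and 419 CPM, 377, 349 and 381 CPM, and 555, 438 and 397 CPM. Sucla2 read 224, 231 and 214 CPM, then 125, 119.7 and 119 CPM, 117, 107 and 106 CPM, and 166, 138 and 132 CPM.

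For these 3 genes every injured total library lay below every naive one, and dpi 42 pool 1 was the highest of its group. On dpi 2 the log2 changes were -0.89 ± 0.12 for Idh3a (q = 5.3e-06), -0.88 ± 0.15 for Mdh1 (q = 6.3e-05) and -0.88 ± 0.10 for Sucla2 (q = 6.2e-07). On dpi 10 they were -0.89, -0.91 and -1.02, and on dpi 42 -0.68, -0.59 and -0.62. Ogdh, Dld, Fh1 and Pcx also fell in total RNA at all 3 times, Dld by 0.52 to 0.68 and Fh1 by 0.52 to 0.70 on the log2 scale.

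Further falls were Idh3b on dpi 2 and 10 (-0.70 and -0.80), Idh3g (-0.55 and -0.49) and Suclg1 (-0.57 and -0.66) at the same times, Cs on dpi 10 and 42 (-0.53 and -0.37), Dlst and Mdh2 on dpi 10 (-0.35 and -0.56), and Cpt1c on dpi 2 and 10 (-0.51 and -0.39). Those of Idh3g at both times, Suclg1 on dpi 2 and Cs and Ogdh on dpi 42 were each lost without any of several single libraries, dpi 2 total pool 2 for Idh3g and Suclg1 (-0.45 and -0.49), each of the 6 for Idh3g on dpi 10 (-0.46 to -0.54), and dpi 42 total pool 3 for Cs and Ogdh (-0.31 and -0.25) among them, and Cpt1c on dpi 10 without dpi 10 total pool 2 (-0.37). The summed neuron markers in total RNA went from 10201 to 10909 CPM in naive libraries to 4361.9 to 5709.9 CPM on dpi 2, 4554.1 to 5003.1 CPM on dpi 10 and 5468.6 to 8763.9 CPM on dpi 42, highest in dpi 42 pool 1, and 7, 7 and 4 of the 8 markers fell (medians -1.12, -1.01 and -0.63). Microglia and macrophage markers went from 193 to 227 CPM in naive total RNA to 3704.6 to 5002.5 CPM on dpi 10. The part of these shifts in the changes of the members was not tested.

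Idh2 rose in total RNA at all 3 times, which no other member did. It read 21.5, 24.7 and 22 CPM in naive pools, 34.8, 44.5 and 41.3 CPM on dpi 2, 40.9, 34.3 and 37.7 CPM on dpi 10, and 35.0, 40.3 and 38.1 CPM on dpi 42. No injured library overlapped the naive ones, and the log2 changes were 0.82 ± 0.22 (q = 0.0048), 0.73 (q = 0.013) and 0.73 (q = 0.018). The dpi 42 call was lost without dpi 42 total pool 2 or naive total pool 1 or 3, and with a length and GC offset (0.50, q = 0.078).

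Acads read 9.90, 9.03 and 9.64 CPM in naive total RNA, 17.4, 19.7 and 14.9 CPM on dpi 2, 18.2, 24 and 15.8 CPM on dpi 10, and 16.8, 16.3 and 14.5 CPM on dpi 42. The naive libraries were the lowest, with log2 changes of 0.87 ± 0.28 (q = 0.017), 1.02 (q = 0.0068) and 0.74 (q = 0.061). The dpi 2 call was lost without dpi 2 total pool 2 (0.77, q = 0.069) or naive total pool 2 (0.83, q = 0.057). In OLs Acads was not called, with 10.4, 10.8 and 22 CPM in naive pools and 24.5, 19.4 and 16.2 CPM on dpi 42.

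Hadh in total RNA read 43.7, 42.7 and 40.4 CPM in naive pools, 51.3, 64.3 and 60.6 CPM on dpi 2, 59.9, 56.9 and 53.3 CPM on dpi 10, and 50.9, 54.5 and 47.8 CPM on dpi 42. The injured libraries all lay above naive, and the change passed on dpi 2 (0.47 ± 0.11, q = 0.0016) and dpi 10 (0.42, q = 0.0048) and not on dpi 42 (0.27). In OLs Hadh stayed between 171 and 233 CPM in all 12 libraries and was not called. Acadvl in total RNA read 48.8, 49.9 and 48.7 CPM in naive pools and 68.5, 61.7 and 62.1 CPM on dpi 42, without overlap, and rose by 0.38 ± 0.12 (q = 0.03). That call was lost without any 1 of these 6 libraries. On dpi 2 Acadvl (0.38) and Acadl (0.37) also rose, and both calls were lost with a length and GC offset (0.15, q = 0.3, and 0.12, q = 0.39), that of Acadvl also without dpi 2 total pool 2 (0.37) or 3 (0.32) or naive total pool 1 or 3.

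**Figure D5:**
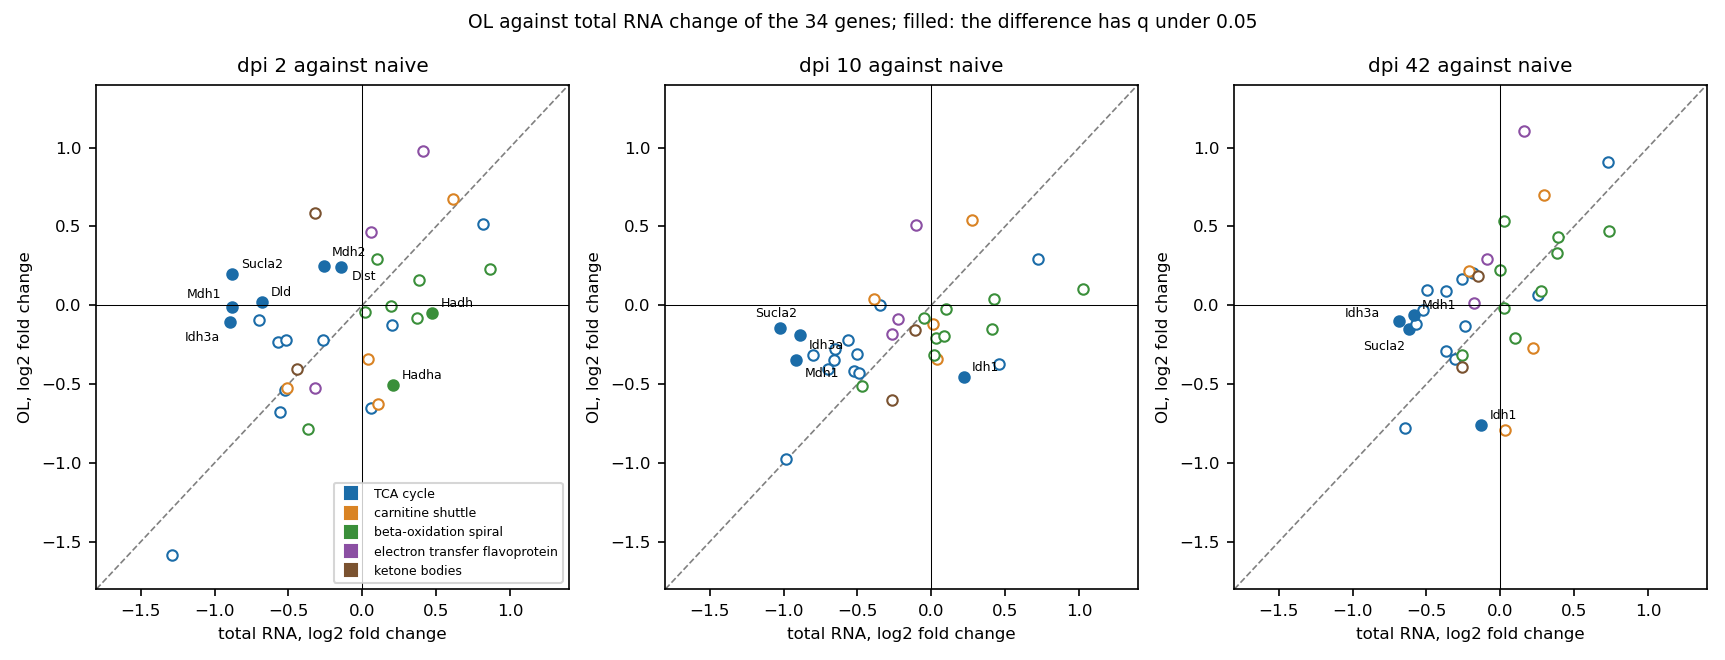
Log2 change in total RNA (x axis) against log2 change in OL RNA (y axis) of the 34 members on dpi 2, 10 and 42 (panels), coloured by role, with a dashed diagonal of equal change and filled, named points where the difference of the changes has q under 0.05. Idh3a, Mdh1 and Sucla2 lie well above the diagonal on dpi 2, with total changes of -0.89, -0.88 and -0.88.

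The OL and total changes were then compared within pools, as a differential OL enrichment that asks whether the difference between OL and total RNA moved after injury. It was higher for 6 members and lower for 2 on dpi 2, against 7.50% and 5.81% of all tested genes. On dpi 10 it was higher for 3 and lower for 1 (4.49% and 3.14%), and on dpi 42 higher for 3 and lower for 1 (4.34% and 3.51%). The member medians were -0.01, 0.10 and 0.19, against 0.05, 0.09 and 0.03 over all tested genes. With a total RNA library as the TMM reference the counts were 3 and 5, 1 and 3, and 0 and 3, and with library sizes alone 4 and 3 on dpi 2. Without dpi 2 pool 3 the dpi 2 counts were 2 and 6.

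For Idh3a, Sucla2 and Mdh1 the difference of OL from total RNA was higher at all 3 times than in naive tissue. None of the 3 was called in OLs against naive at any time. On dpi 2 their mean levels were still lower in OL than in total RNA (78.0 against 115, 97.4 against 121 and 250 against 377 CPM). For Sucla2 the differential OL enrichment was 1.08 on dpi 2 (q = 0.00018), 0.88 on dpi 10 and 0.47 on dpi 42. The dpi 42 calls of the 3 genes were lost without dpi 42 pool 2 (Sucla2 0.37, Mdh1 0.44, Idh3a 0.62) or naive pool 1 or 2, and the dpi 10 calls of Idh3a and Mdh1 without dpi 10 pool 2 (0.67 and 0.51) or naive pool 2. OL libraries held 80.0 to 88.3 CPM of Sucla2 in naive tissue and 96.7 to 98.3 CPM on dpi 2, while total libraries went from 214 to 231 CPM down to 119 to 125 CPM. Hadha moved the other way on dpi 2 (-0.71, q = 0.0038): it fell in OLs and read 111, 112 and 105 CPM in naive and 119, 127 and 134 CPM in dpi 2 total RNA. Idh1 was lower on dpi 10 (-0.67, q = 0.0037) and dpi 42 (-0.63, q = 0.0055).

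Pcx, with its OL fall of 1.59 and total fall of 1.29 on dpi 2 on the log2 scale, was not called in this comparison at any time. The differential call of Hadh on dpi 2 (-0.51, q = 0.02) was lost without dpi 2 pool 2 or naive pool 2 or 3, and without the astrocyte-rich OL libraries (-0.37, q = 0.12). That of Idh3a on dpi 2 (0.79, q = 0.0031) was lost without dpi 2 pool 3 (0.46, q = 0.063), and that of Dld (0.69, q = 0.013) without dpi 2 pool 3 (0.31, q = 0.22) or naive pool 1 or 2. Those of Mdh2 and Dlst on dpi 2 were lost without dpi 2 pool 3 (0.26 and 0.11) and without dpi 2 pool 1 or naive pool 1 or 2.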

How the data were processed

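Total RNA and HA-purified OL RNA were sequenced from 12 tissue pools of 2 mice, which are separate animals. The authors checked reads with FastQC, aligned them with STAR to GRCm38.p6 (mm10), counted reads per gene with HTSeq 0.10.0 and deposited these raw counts without normalization. The HTSeq strand setting was not given in the sources used here. Counts differed between replicates by more than sampling noise (median chi-square per gene 2.51 to 21.1).

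Counts were fitted with edgeR 4.0.16 in R 4.3.3: TMM scaling (factors 0.742 to 0.899 for OL, 1.10 to 1.29 for total), genes with at least 10 counts in sum, a quasi-likelihood test, and Benjamini-Hochberg adjustment over 17167 genes (q, called under 0.05). Changes used 8 group means. OL enrichment and its change used 12 pool terms, since OL and total RNA of a pool are the same tissue. Deviations from group means correlated at -0.011 to 0.137 within pools and at -0.105 to 0.050 between different pools of a group. On dpi 42 the values were -0.011 to 0.020 within pools and -0.028 to 0.025 between them, which does not tell the pairs apart. Alternatives were DESeq2 1.42.0, other scalings, a length and GC offset, blocks and left-out libraries. The test was checked on simulated counts. Named with every library were the 3 members with the highest and the 3 with the lowest called change per comparison whose libraries did not overlap, plus Cs, Idh2, Pcx, Cpt1a, Cpt1c, Bdh1 and Oxct1, and from each companion list the largest called rise and fall in OLs at each time, except 1 gene that is not reported here. Members and lists were chosen with earlier results of these data known.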

Additional observations from a re-analysis of the deposited data

Results flagged for a closer look

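The results below were singled out because the change after injury in OL RNA differed from the change in total RNA of the same pools, by the test of the difference itself (edgeR, q adjusted over all tested genes). Values are differences of log2 changes, OL minus total.

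On dpi 2 the difference was positive for Sucla2 (1.08, q = 0.00018), Mdh1 (0.88, q = 0.0014), Idh3a (0.79, q = 0.0031), Dld (0.69, q = 0.013), Mdh2 (0.53, q = 0.023) and Dlst (0.38, q = 0.041), and negative for Hadha (-0.71, q = 0.0038) and Hadh (-0.51, q = 0.02).

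On dpi 10 it was positive for Sucla2 (0.88, q = 0.0012), Idh3a (0.71, q = 0.01) and Mdh1 (0.58, q = 0.024) and negative for Idh1 (-0.67, q = 0.0037).

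On dpi 42 it was positive for Idh3a (0.60, q = 0.022), Mdh1 (0.53, q = 0.035) and Sucla2 (0.47, q = 0.034) and negative for Idh1 (-0.63, q = 0.0055).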

How the results depend on the processing

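Of 114 calls of members over the 12 comparisons, 51 held under every alternative and 63 were lost under at least 1. Counts are of members higher and lower. With a total RNA library as the TMM reference, OLs gave 14 calls on dpi 2 (1 and 13), 12 on dpi 42 (2 and 10) and 1 from dpi 10 to dpi 42 (0 and 1). In fits of the compared groups alone there were 4 (1 and 3), 3 (0 and 3) and 3 (1 and 2) in OLs on dpi 2, 10 and 42, 0 from dpi 10 to dpi 42, and 5 (3 and 2) and 1 (0 and 1) for differential OL enrichment on dpi 2 and 42. Library sizes alone gave 3 in OLs on dpi 10 (1 and 2), and Etfdh in naive OL enrichment reversed to -0.0799. The length and GC offset gave 5 on dpi 10 (0 and 5) and 11 on dpi 42 (7 and 4) in OLs and 6 on dpi 42 in total RNA (0 and 6). Omitting the dpi 42 libraries with conflicting labels left 0 from dpi 10 to dpi 42. DESeq2 gave 9 for differential OL enrichment on dpi 42 (8 and 1). Omitting the OL libraries richest in astrocyte markers, chosen after seeing the data, gave 15 in OLs on dpi 2 (6 and 9) and 11 for differential OL enrichment on dpi 42 (10 and 1). The causes were not tested.

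Leaving out 1 library at a time gave 16 to 24 calls for naive OL enrichment, 8 to 15, 3 to 8 and 5 to 13 for OL changes on dpi 2, 10 and 42, 3 to 7 from dpi 2 to dpi 10, 0 to 4 from dpi 10 to dpi 42, 12 to 16, 15 to 17 and 6 to 10 for total changes, and 4 to 8, 2 to 6 and 1 to 7 for differential OL enrichment.

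The replicate numbers pair no animals between injury times. With a replicate block, OL changes gave 2 and 7, 0 and 7, and 2 and 4, the steps between times 2 and 3, and 0 and 1, and total changes 6 and 11, 4 and 14, and 2 and 7. Without the pairing of pools, naive OL enrichment gave 12 and 8 and differential OL enrichment 5 and 3, 2 and 1, and 3 and 1. Scaling by library sizes alone moved the median of all genes by 0.20, 0.16 and 0.11 in total changes and by -0.51 in naive OL enrichment, and a total RNA reference moved differential OL enrichment by -0.23, -0.23 and -0.22 and total changes by 0.11 and 0.13 on dpi 2 and 10.

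A value that missed the threshold does not show equal levels.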

Other observations

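Genes beside the members were described through 5 companion lists, all written with earlier results of these data known. The left-out libraries and other alternatives were examined for the members only, so the stability of companion calls is not known. Their counts stand beside the shares over all tested genes, of which 18.4%, 9.62% and 16.2% rose and 20%, 8.59% and 16.9% fell in OLs on dpi 2, 10 and 42, 16.4%, 13.9% and 10.4% rose and 20.8%, 18.2% and 12.1% fell in total RNA, and 24.4% were higher and 29.1% lower in naive OL than in naive total RNA. Of 20 other genes of the TCA cycle and pyruvate entry, the rises in OLs on dpi 2, 10 and 42 numbered 5, 1 and 6 and the falls 5, 4 and 4. Malic enzyme Me1, which makes NADPH in the cytosol, rose on dpi 2 (0.93, from 133 to 254 CPM) and on dpi 10 (0.38). Pdk1, a kinase that inhibits pyruvate dehydrogenase, fell on dpi 2 (-1.23, from 57.2 to 24.3 CPM), and on dpi 42 the succinate dehydrogenase subunit Sdhc rose (0.65) and the cytosolic aconitase Aco1 fell (-0.82). In total RNA the rises on dpi 2, 10 and 42 numbered 1, 0 and 0 and the falls 10, 10 and 9.

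Of 22 other genes of mitochondrial fatty acid oxidation, the rises in OLs on dpi 2, 10 and 42 numbered 2, 1 and 3 and the falls 8, 4 and 4, and in naive tissue 10 were higher and 4 lower in OLs than in total RNA. The acyl-CoA synthetases, which activate fatty acids for oxidation or for lipid synthesis, moved in both directions. Acsl5 rose from 2.89 CPM in naive OLs to 19.8, 6.68 and 7.31 CPM (log2 changes 2.77, 1.20 and 1.33, the last with overlapping libraries). Acsl3 fell on dpi 2 and 10 (-1.01 and -1.34) and Acsl4 on dpi 42 (-1.12). The naive OL libraries spread widely for Acsl3 (402 ± 162 CPM, SD).

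Of 15 peroxisomal genes, the rises on dpi 2, 10 and 42 numbered 0, 0 and 2 and the falls 4, 2 and 4, among them Hsd17b4 on dpi 10 (-0.39) and Amacr on dpi 42 (0.91, overlapping libraries). Acox2 held 5, 0 and 19 counts in naive OL pools 1 to 3 and 0 in each injured OL library, and its falls on dpi 2 and 42 rest on these counts. Of 6 other ketone body genes, 0 rose and 2 fell on dpi 2 and none was called later, with Bdh2 at -2.15 on dpi 2 (overlapping libraries). Of 14 regulators, the rises on dpi 2, 10 and 42 numbered 2, 0 and 1 and the falls 2, 1 and 3. The nuclear receptor Ppara held 8, 24 and 42 counts in naive OL pools 1 to 3 and 0, 0 and 0 on dpi 2. The mean of the naive libraries, which spread widely, was 8.46-fold above a floor of 3 counts per dpi 2 library. Ppara held 11, 18 and 17 counts on dpi 10 and 0, 5 and 12 on dpi 42. The desuccinylase Sirt5 rose on dpi 2 (0.89), Esrrg fell on dpi 10 (-1.16), and on dpi 42 Esrra rose (0.63) and the coactivator Ppargc1a fell (-1.54). Naive OL levels of Ppargc1a spread widely (9.87 ± 7.75 CPM, SD), and the SE of its change was 0.47.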
